A study of Mus musculus with 8 samples.

Results

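The genes described here are the mouse zinc finger genes numbered Zfp600 to Zfp999. They were chosen by symbol alone, as the probe sets listed with a single gene whose symbol lies between Zfp600 and Zfp999, and each gene was represented by its brightest probe set, judged on the mean of the 8 arrays. This gave 155 genes out of 22180 genes that had a probe set of their own. The group was proposed under the name KRAB-type zinc finger genes, but no protein sequences were used here, and some members such as Zfp706, Zfp703 and Zfp638 are known as zinc finger proteins without a KRAB domain. The genes are therefore called by their numbers.

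Most numbered Zfp genes encode C2H2 zinc finger proteins, in which a row of fingers reads a DNA sequence. In KRAB zinc finger proteins the fingers are joined to a KRAB domain, which recruits the corepressor TRIM28, also known as KAP1, and through it the histone methyltransferase SETDB1. In embryonic stem cells this machinery is known for silencing retrotransposons and for keeping methylation at imprinted loci. KRAB zinc finger genes multiply by local duplication, and the mouse genome holds large clusters of similar copies, whose transcripts an array may not tell apart.

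Transcript levels came from Affymetrix Mouse Gene 2.1 arrays of wild-type C57BL/6J material in 4 groups with 2 arrays each, labelled replicate 1 and replicate 2. FGF-ESC are lines grown in KODMEM with 20% serum replacement (KSR) and FGF2 on mouse embryonic fibroblasts (MEF), and EpiSC, which stand for the primed pluripotent state, were grown in the same way. ESC, the naive stem cells, were grown in DMEM with 15% FCS, LIF and the kinase inhibitor mix 2i and without MEF. ICM is uncultured inner cell mass that was isolated by immunosurgery from blastocysts of embryonic day 3.5, the stage that the labels give as the origin of every line. The labels do not say how many lines or embryos an array stands for, so the p-values reflect no more than the spread among these arrays, and that spread may be technical. Medium, feeders and cell type changed together between ESC and the other cultures, and the ICM RNA was extracted with another column kit than the RNA of the cultured cells.

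The arrays carried the markers of their labels. Over 8 naive genes the mean log2 level reached 7.21 and 7.57 on the FGF-ESC arrays, 7.99 and 7.97 on those of ESC, 4.53 and 4.97 on those of EpiSC and 7.58 and 7.55 on those of ICM, and over 6 primed genes it reached 4.495 and 4.50 on the FGF-ESC arrays, 4.37 and 4.30 on those of ESC, 6.44 and 6.79 on those of EpiSC and 4.59 and 4.56 on those of ICM. Fibroblast genes stood apart in FGF-ESC, with a mean over 11 genes of 8.98 and 7.72, where ESC stood at 3.98 and 3.98, EpiSC at 4.95 and 5.32 and ICM at 4.42 and 4.49. In such bulk samples, fewer cells of a type and less RNA per cell cannot be told apart. Trophectoderm and primitive endoderm markers were highest in ICM, at 5.99 and 5.91 over 6 genes and at 6.65 and 6.53 over 5 genes.

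Many of the differences fell in 1 gene neighbourhood on chromosome 4, and its promoters are shown first. In the RefSeq gene table of GRCm38.p6, 81 of the 155 genes fell into 16 runs of at least 3 members with at most 7 other protein-coding genes between neighbours. The run with most changes held 9 members on chromosome 4, in the order Zfp980, Zfp600, Zfp992, Zfp981, Zfp982, Zfp985, Zfp979, Zfp984 and Zfp933. RefSeq promoters, taken as 300 bases from 250 before to 50 after a transcript start, were at hand for 8 of these 9 genes and for 135 of the 155. The 4 promoters below are those of run members with large differences between ESC and EpiSC, at chr4:146514670-146514969 (plus strand), chr4:147642459-147642758 (minus strand), chr4:145670447-145670746 (plus strand) and chr4:147553027-147553326 (plus strand) of GRCm38.p6. Each is printed 5′ to 3′ along its gene, and capitals mark the 2 longest stretches that a promoter of each of 7 run members shares without a mismatch. The 4 shown also share a stretch of 21 bases near their end, which 6 of the 7 hold and Zfp984 does not, and which is therefore left in lower case.
Zfp981: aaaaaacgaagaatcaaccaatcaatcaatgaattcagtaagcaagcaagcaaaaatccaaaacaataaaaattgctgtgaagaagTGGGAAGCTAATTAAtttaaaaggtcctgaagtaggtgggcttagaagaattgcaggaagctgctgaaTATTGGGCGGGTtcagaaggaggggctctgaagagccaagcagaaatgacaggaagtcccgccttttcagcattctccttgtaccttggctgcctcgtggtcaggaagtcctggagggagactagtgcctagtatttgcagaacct
Zfp979: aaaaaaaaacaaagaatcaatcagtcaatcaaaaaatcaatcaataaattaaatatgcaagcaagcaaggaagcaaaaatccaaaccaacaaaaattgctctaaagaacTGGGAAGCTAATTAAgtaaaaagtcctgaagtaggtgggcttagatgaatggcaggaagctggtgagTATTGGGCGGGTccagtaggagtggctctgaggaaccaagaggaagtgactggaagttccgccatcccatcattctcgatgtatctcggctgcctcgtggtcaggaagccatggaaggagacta
Zfp980: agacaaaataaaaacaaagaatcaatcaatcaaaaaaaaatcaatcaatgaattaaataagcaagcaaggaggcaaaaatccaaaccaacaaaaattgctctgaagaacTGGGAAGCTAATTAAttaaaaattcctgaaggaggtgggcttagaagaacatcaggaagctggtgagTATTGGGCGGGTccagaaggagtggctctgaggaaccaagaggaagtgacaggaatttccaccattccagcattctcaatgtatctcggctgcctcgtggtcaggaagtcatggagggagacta
Zfp985: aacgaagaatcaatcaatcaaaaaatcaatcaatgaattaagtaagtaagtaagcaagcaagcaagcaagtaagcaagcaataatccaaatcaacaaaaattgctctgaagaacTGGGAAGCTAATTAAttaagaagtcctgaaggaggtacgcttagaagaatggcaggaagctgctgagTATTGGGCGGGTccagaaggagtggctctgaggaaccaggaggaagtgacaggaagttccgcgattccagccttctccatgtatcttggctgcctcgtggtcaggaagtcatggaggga

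The shared stretches were TGGGAAGCTAATTAA and TATTGGGCGGGT, searched on both strands, and they do not overlap. Each was found in 12 of 32851 RefSeq promoters, or 0.0365%. The first was held by 9 genes with numbers in this range, of which the 7 with a probe set of their own lie in the run, and Zfp987 and Zfp988 are the others. Its further holders were Gm13212, Rex2 and Zfp534. The second was also in the promoters of Zfp988 and of Zfp947 and Zfp994, which lie in a run on chromosome 17. Pairwise identity came from gapped alignments without a cost for gaps at the ends. Where a gene had several starts, the promoter that held most of the stretches was aligned, a choice that can favour high identity. Among the 7 promoters identity was between 72.3% (Zfp600 with Zfp984) and 96.3% (Zfp600 with Zfp979). The promoter of Zfp933, the last gene of the run, had 55% to 59% identity with them and held neither stretch.

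For contrast, the promoters of Zfp936 (chr7:43177340-43177639, plus strand) and Zfp640 (chr13:66680754-66681053, minus strand) belong to genes that had the same difference between ESC and EpiSC but lie on chromosomes 7 and 13. They are shown because they hold neither of the stretches, and so have no capitals.
Zfp936: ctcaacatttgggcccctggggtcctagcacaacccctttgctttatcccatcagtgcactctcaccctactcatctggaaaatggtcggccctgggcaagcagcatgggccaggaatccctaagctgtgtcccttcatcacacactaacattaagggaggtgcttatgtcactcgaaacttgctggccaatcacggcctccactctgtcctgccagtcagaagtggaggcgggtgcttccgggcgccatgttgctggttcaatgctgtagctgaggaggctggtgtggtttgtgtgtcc
Zfp640: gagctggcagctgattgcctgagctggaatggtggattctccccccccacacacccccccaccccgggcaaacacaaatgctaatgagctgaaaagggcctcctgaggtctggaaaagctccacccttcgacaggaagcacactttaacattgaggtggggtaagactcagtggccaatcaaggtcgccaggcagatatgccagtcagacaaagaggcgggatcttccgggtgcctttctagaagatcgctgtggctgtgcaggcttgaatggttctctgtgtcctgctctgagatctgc
Their identity with the promoters of the run lay between 48% and 58.7%, and with each other it was 63.7%. A shared stretch is a description of these windows and no binding site, and promoter activity was not measured here.

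Levels are log2 intensities as deposited. The median of all values was 4.24, and a mean below it is near background. Of the 155 genes, 78 were above it on all 8 arrays and 20 on none. A gene was tested if it exceeded this median on at least 2 arrays, which 127 of the 155 did. The 28 untested genes include 2 with a known role against retroelements: Zfp708 ranged between 3.03 and 3.99 over the arrays and Zfp932 between 3.01 and 3.84. Zfp711, an X-linked gene tied to intellectual disability in humans, was also dim, between 3.11 and 3.83. The median of the gene means was 4.87 over the 155 genes and 4.52 over all 22180 genes.

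The brightest member was Zfp706, a small zinc finger protein known in mouse embryonic stem cells to be needed for leaving self-renewal, with a mean of 9.07 over the arrays. It was at 8.58 and 8.84 on the FGF-ESC arrays, 8.96 and 8.95 on those of ESC, 9.24 and 9.22 on those of EpiSC and 9.48 and 9.32 on those of ICM. The groups did not overlap but stayed within 1 log2 unit, and it passed in none of the comparisons. Zfp622 (mean 8.39), Zfp992 (8.07), Zfp808 (7.66), Zfp638 (7.57) and Zfp960 (7.30) followed. Zfp638, which is known to silence unintegrated retroviral DNA, differed little, from 7.37 on 1 FGF-ESC array to 7.81 on 1 ESC array.

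A gene passed a comparison when its adjusted p was under 0.05 and its group means were 1 log2 unit or more apart, from limma over all 13597 tested genes with Benjamini-Hochberg adjustment. Every adjusted p and SE below is limma's, with n = 2 arrays per group, and SEs use a spread estimated jointly in the 4 groups. Of the 127 tested genes 88 passed in none of the 6 comparisons, 13 in 1, 11 in 2, 11 in 3, 1 in 4, 2 in 5 and 1, Zfp640, in all 6, although its FGF-ESC over ESC call was lost under some alternatives given below. The 39 that passed anywhere are 30.7% of the 127, where 25.1% of all tested genes passed anywhere. Of the 39, 18 had their lowest mean in EpiSC, 12 in ICM, 9 in FGF-ESC and 0 in ESC. Their highest mean was in ESC for 17, in ICM for 12, in EpiSC for 7 and in FGF-ESC for 3. Among all tested genes that passed anywhere, the lowest mean was in EpiSC for 26.1%, in ICM for 44.1%, in FGF-ESC for 9.48% and in ESC for 20.4%, and the highest was in ESC for 15.4%, in ICM for 31.1%, in EpiSC for 25.4% and in FGF-ESC for 28.1%. The difference between these genes and all genes was not tested.

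**Figure D1:**
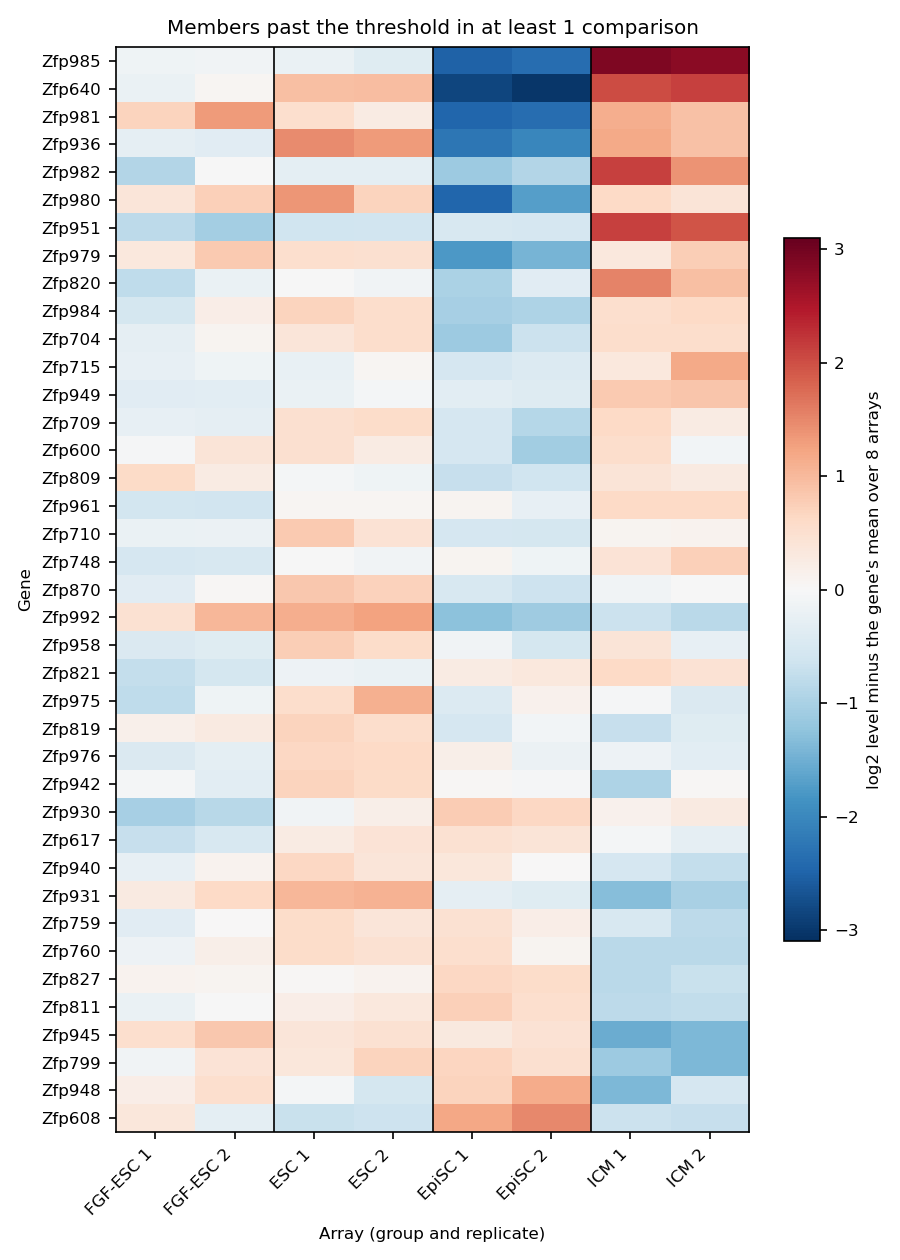
Levels of the 39 genes that passed in at least 1 comparison (rows) on the 8 arrays (columns, 2 per group), as log2 level minus the gene's own mean over the arrays; red is above and blue below that mean. Rows are ordered by the difference between EpiSC and ICM. Zfp985, Zfp640, Zfp981 and Zfp936 at the top are lowest on both EpiSC arrays, and Zfp945, Zfp799, Zfp948 and Zfp608 at the bottom are lower in ICM than in EpiSC.

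ESC against EpiSC compares the naive with the primed state. Here 14 of the 127 genes were higher in ESC and 2 were lower, while 7.36% of all tested genes passed in either direction, and 7 of the 14 were the members of the chromosome 4 run Zfp980, Zfp600, Zfp992, Zfp981, Zfp985, Zfp979 and Zfp984. Over all tested genes 3.5% were higher and 3.86% lower in ESC, against 11% and 1.57% of these genes. Outside the run 7 of 118 tested genes, or 5.93%, were higher. The median log2 fold change was 0.05 over the 127 genes and 0.005 over all tested genes.

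Zfp981 had levels of 7.81 and 7.55 on the ESC arrays against 4.82 and 4.94 on the EpiSC arrays, a log2 difference of 2.80 ± 0.21 (adjusted p = 7.47e-05). Zfp980 had 6.86 and 6.16 on the ESC arrays against 3.03 and 3.78 on the EpiSC arrays, a difference of 3.11 ± 0.29 (adjusted p = 0.000226), and its EpiSC values are near background. Zfp992, one of the brightest genes of the set, had 9.20 and 9.33 on the ESC arrays against 6.80 and 6.97 on the EpiSC arrays, a difference of 2.38 ± 0.19 (adjusted p = 9.14e-05). In each of these genes both EpiSC arrays were below every other array of the study. Zfp985 had 5.10 and 4.93 on the ESC arrays against 2.80 and 2.94 on the EpiSC arrays, a difference of 2.15 ± 0.12 (adjusted p = 2.53e-05), again with EpiSC near background.

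Further along the run, Zfp984 was higher in ESC by 1.61 ± 0.22 and Zfp979 by 2.12 ± 0.21, which became 1.03 when its probe sets were averaged. Zfp600 was higher by 1.17 ± 0.26 (adjusted p = 0.0168), a call that was lost without ESC replicate 1, ESC replicate 2 or EpiSC replicate 2, with adjusted p between 0.00141 and 0.13 over its alternatives. Zfp982 lay at 4.35 and 4.36 on the ESC arrays against 3.54 and 3.75 on the EpiSC arrays and did not pass. Zfp933 did not differ past the threshold between ESC (6.77 and 6.62) and EpiSC (6.68 and 6.55), with a difference of 0.08 ± 0.13. The promoter of Zfp982 holds both shared stretches and that of Zfp933 neither, and a link between the stretches and the differences was not tested.

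**Figure D2:**
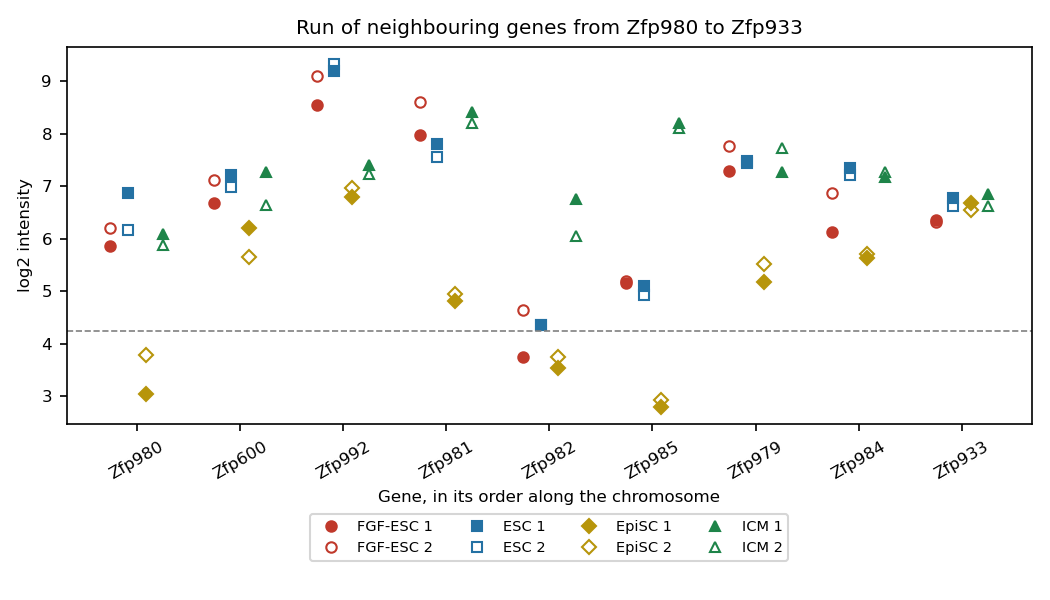
Log2 intensity of the 9 members of the chromosome 4 run, in their order along the chromosome; each group has its own colour and symbol, filled for replicate 1 and open for replicate 2, and the dashed line is the median of all values, 4.24. EpiSC has the lowest mean in each gene but Zfp933, where the groups lie close together, and the ICM arrays are far above the others in Zfp982 and Zfp985.

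Because the copies are alike, probe sets that the annotation lists with several genes are given beside the run. The one listed with Zfp600, Zfp979, Zfp980, Zfp981 and Rex2 had 9.70 and 9.79 on the FGF-ESC arrays, 9.54 and 9.58 on those of ESC, 7.28 and 7.501 on those of EpiSC and 9.96 and 9.96 on those of ICM. One listed with Zfp992, Zfp991, Zfp993 and Znf41-ps had 7.93 and 8.55 on the FGF-ESC arrays, 8.06 and 8.11 on those of ESC, 6.14 and 6.57 on those of EpiSC and 7.80 and 7.86 on those of ICM. On both of them EpiSC was lowest. Which copy a probe set of the run reads is therefore uncertain, and levels of single genes in it are not independent readings. Of the 7 other protein-coding genes within the run, 2 had a probe set of their own, and both were higher in ESC than in EpiSC: Rex2 by 3.46 and Zfp534 by 2.47 on the log2 scale.

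Outside the run, Zfp640 and Zfp936 had the largest differences. Zfp640 was at 7.07 and 7.10 on the ESC arrays against 3.30 and 3.12 on the EpiSC arrays, a log2 difference of 3.87 ± 0.13 (adjusted p = 4.16e-06). Zfp936 was at 7.65 and 7.50 on the ESC arrays against 3.92 and 4.14 on the EpiSC arrays, a log2 difference of 3.54 ± 0.14 (adjusted p = 6.67e-06). Both genes were near background in EpiSC, so the size of these folds depends on that floor. The other genes higher in ESC were Zfp931 (1.38 ± 0.16), Zfp704 (1.36 ± 0.18), Zfp870 (1.35 ± 0.15), Zfp709 (1.24 ± 0.16) and Zfp710 (1.16 ± 0.14). Zfp709 was under the fold minimum when its probe sets were averaged (0.94), and Zfp710 without ESC replicate 1 (0.98).

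Only Zfp608 and Zfp948 were lower in ESC. Zfp608, known in mouse thymocytes as a repressor of the Rag genes, was at 4.22 and 4.25 on the ESC arrays against 6.10 and 6.39 on the EpiSC arrays, a difference of -2.01 ± 0.21 (adjusted p = 0.000348). Zfp948 had -1.22 ± 0.30 (adjusted p = 0.0241), which was lost when any array of ESC or EpiSC was left out, with adjusted p between 0.0026 and 0.179 over its alternatives.

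CpG dinucleotides in the promoters were counted after the differences had been seen, so these counts carry no test. For a gene with several starts the highest count was taken. Of the 14 genes higher in ESC, 11 had a promoter sequence, with a median of 5 CpG in 300 bases and a range of 3 to 23. The 96 genes that passed in neither direction and had a promoter held a median of 16, between 4 and 59. Among all tested genes the medians were 15 for the 366 that were higher in ESC, 21 for the 379 that were lower and 21 for the 9866 that did not pass. The run accounts for 6 of the 11, and the other 5 had a median of 6. Low medians were also seen for members that passed in EpiSC over ICM or ESC over ICM, in either direction. In EpiSC over ICM the median was 8 for members higher, 6 for members lower and 17 for those that passed in neither direction. In ESC over ICM it was 8, 8 and 16 in the same order. In FGF-ESC over EpiSC it was 6 for members higher and 16 for those that passed in neither direction. Of the 3 members lower there, 1 had a promoter, with 21 CpG. Zfp821, which was lower in FGF-ESC than in ICM, had 42. Methylation was not measured, and its part in these differences was not tested.

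**Figure D3:**
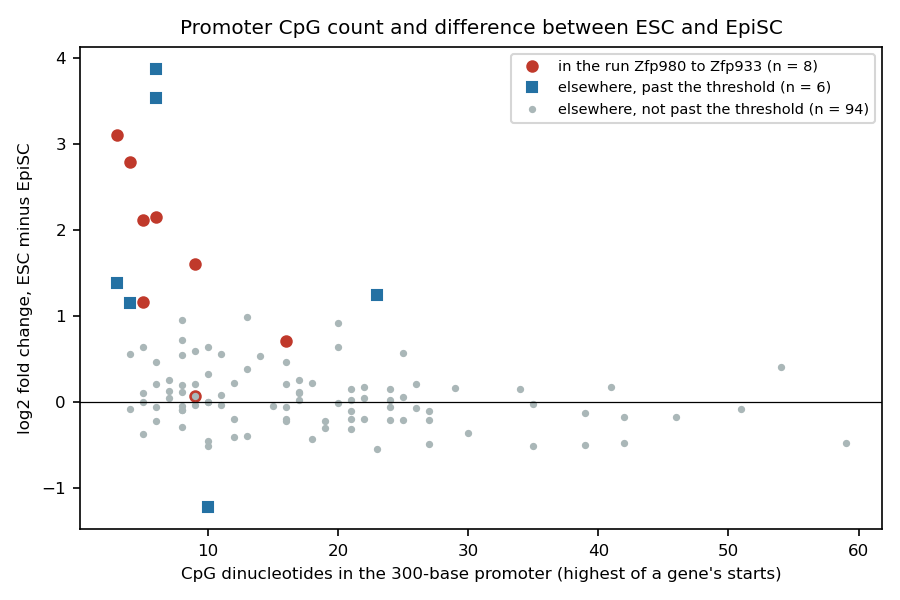
Log2 fold change between ESC and EpiSC (vertical axis, ESC minus EpiSC) against the number of CpG dinucleotides in a gene's 300-base promoter (horizontal axis), 1 point per tested gene with a promoter. Red circles are the 8 genes of the chromosome 4 run, blue squares the 6 genes elsewhere that passed and grey dots the 94 genes elsewhere that did not. Of the 12 genes that passed, Zfp709 with 23 CpG is the one to the right, and the others have 10 or fewer.

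FGF-ESC and EpiSC share medium and feeders. In this comparison 8 of the 127 genes were higher in FGF-ESC and 3 lower, against 5.26% higher and 2.02% lower over all tested genes, shares close to the 6.3% and 2.36% of these genes. Of the 8, 5 lay in the run on chromosome 4. Both comparisons with EpiSC use the same EpiSC arrays, so the comparisons are not independent and their values are only set side by side. Zfp981 had 7.98 and 8.61 on the FGF-ESC arrays against 4.82 and 4.94 on the EpiSC arrays, a log2 difference of 3.41 ± 0.21 (adjusted p = 5.45e-05). Zfp980 rose by 2.63 ± 0.29, Zfp985 by 2.31 ± 0.12, Zfp979 by 2.17 ± 0.21 and Zfp992 by 1.94 ± 0.19 in FGF-ESC.

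Outside the run Zfp640 was at 5.95 and 6.21 on the FGF-ESC arrays against 3.30 and 3.12 on the EpiSC arrays (2.86 ± 0.13, adjusted p = 2.05e-05), and Zfp936 was at 5.90 and 5.83 on the FGF-ESC arrays against 3.92 and 4.14 on the EpiSC arrays (1.83 ± 0.14, adjusted p = 0.00014). Zfp809, a KRAB zinc finger protein known to recognise the proline tRNA primer binding site of murine leukaemia virus and to silence such proviruses in embryonic stem cells, was at 7.83 and 7.50 on the FGF-ESC arrays against 6.54 and 6.62 on the EpiSC arrays. It rose by 1.09 ± 0.14 (adjusted p = 0.00145), and by 0.92 without FGF-ESC replicate 1, under the fold minimum. In ESC it was at 7.18 and 7.11 and in ICM at 7.65 and 7.52, so that EpiSC were lowest.

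The 3 falls were Zfp930 (-1.65 ± 0.14), Zfp608 (-1.32 ± 0.21) and Zfp617 (-1.04 ± 0.14). Zfp608 did not pass without FGF-ESC replicate 2 (-0.997) and Zfp617 not without FGF-ESC replicate 1 (-0.93). Fibroblast genes were at 8.98 and 7.72 on the FGF-ESC arrays against 4.95 and 5.32 on the EpiSC arrays, and their part in the differences was not tested.

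FGF-ESC against ESC showed fewer differences: 0 of the 127 genes were higher and 5 lower in FGF-ESC, where 5.27% of all tested genes were higher and 0.934% lower. The median log2 difference was -0.20 over the 127 genes, -0.16 over the 147 tested genes numbered Zfp1 to Zfp599 and -0.06 over all tested genes. Without the fold minimum 1 gene was higher and 20 lower, where 9.24% of all tested genes were higher and 6.11% lower. Zfp936 had 5.90 and 5.83 on the FGF-ESC arrays against 7.65 and 7.50 on the ESC arrays, a log2 difference of -1.71 ± 0.14 (adjusted p = 0.000321). It was the 1 gene that passed under every alternative.

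The other falls were close to the threshold. Zfp975 had -1.28 ± 0.29 (adjusted p = 0.0231), Zfp958 -1.07 ± 0.22 (adjusted p = 0.0176), Zfp640 -1.01 ± 0.13 (adjusted p = 0.00279) and Zfp976 -1.01 ± 0.15 (adjusted p = 0.00434). Zfp936, Zfp975 and Zfp976 belong to 1 run on chromosome 7. The count depended on single arrays: 1 gene was lower without FGF-ESC replicate 1 and 2 were lower without ESC replicate 2, while 2 were higher and 11 lower without FGF-ESC replicate 2. The FGF-ESC array with the higher fibroblast level, replicate 1 at 8.98, was below replicate 2 for 85 of the 127 genes, or 66.9%, and for 53.4% of all tested genes. Examples in each direction, picked after seeing the values, are Zfp981 (7.98 on replicate 1 and 8.61 on replicate 2) and Zfp809 (7.83 and 7.50). The part of the fibroblast RNA in the shift was not tested. None of the members of the chromosome 4 run passed between these groups.

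The comparisons with ICM set cultured cells against the embryo. In FGF-ESC 5 of the 127 genes were higher and 11 lower than in ICM, against 9.57% and 5.22% of all tested genes. In ESC 11 were higher and 5 lower, against 5.82% and 5.57%. In EpiSC 8 were higher and 16 lower, against 8.48% and 6.8%. All 3 share the ICM arrays, so genes found in each are not repeated evidence.

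Zfp951, Zfp982 and Zfp985 had their highest levels in ICM. Zfp951 exceeded the median of all values on 2 arrays, those of ICM, and was tested only through them. Its adjusted p-values are therefore only descriptive, and it was not tested when 4 arrays above the median were required. Zfp951 had 3.78 and 3.55 on the FGF-ESC arrays, 3.99 and 4.02 on those of ESC, 4.11 and 4.07 on those of EpiSC and 6.73 and 6.55 on those of ICM. The cultured cells were near background, and the log2 difference was -2.98 ± 0.13 in FGF-ESC, -2.64 ± 0.13 in ESC and -2.55 ± 0.13 in EpiSC (adjusted p = 2.26e-06, 4.94e-06 and 3.71e-06). Zfp985 was at 8.21 and 8.10 in ICM and differed by -2.98 ± 0.12 in FGF-ESC, -3.14 ± 0.12 in ESC and -5.29 ± 0.12 in EpiSC. This made 3 separate levels, with FGF-ESC (5.17 and 5.19) beside ESC, EpiSC at background and ICM at the top. Zfp982, its neighbour in the run, was at 3.75 and 4.65 on the FGF-ESC arrays, 4.35 and 4.36 on those of ESC, 3.54 and 3.75 on those of EpiSC and 6.77 and 6.05 on those of ICM, and passed against ICM in all 3 cultures.

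Zfp820 also fell in all 3, with -1.74 ± 0.28 in FGF-ESC, -1.304 ± 0.284 in ESC and -1.90 ± 0.28 in EpiSC on the log2 scale, and its ESC call was lost without ESC replicate 1, ESC replicate 2 or ICM replicate 1. Zfp640 was at 8.17 and 8.28 in ICM and differed by -2.15 ± 0.13 in FGF-ESC, -1.14 ± 0.13 in ESC and -5.01 ± 0.13 in EpiSC. Its 4 group means were thus ordered EpiSC, FGF-ESC, ESC and ICM, and each neighbouring pair passed, but the step between FGF-ESC and ESC was lost with the mean of its probe sets and without FGF-ESC replicate 1 or ESC replicate 2. Zfp936 differed from ICM by -1.35 ± 0.14 in FGF-ESC and -3.18 ± 0.14 in EpiSC, while in ESC the difference of 0.36 did not pass. Zfp981 (-3.43 ± 0.21), Zfp980 (-2.58 ± 0.29), Zfp979 (-2.15 ± 0.21) and Zfp984 (-1.56 ± 0.22) passed against ICM only in EpiSC. So did Zfp600 (-1.03 ± 0.26), which was lost under quantile normalization and without EpiSC replicate 2 or ICM replicate 1. The Zfp979 call was lost when its probe sets were averaged (-0.46). Another probe set of Zfp979, 17432757, was higher than ICM in all 3 cultures, by 1.51 in FGF-ESC, 1.88 in ESC and 1.14 in EpiSC.

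Other genes were higher in cultured cells than in ICM. Zfp945 had 6.10 and 6.42 on the FGF-ESC arrays, 5.95 and 6.04 on those of ESC, 5.88 and 6.01 on those of EpiSC and 4.05 and 4.18 on those of ICM. It rose by 2.15 ± 0.14 in FGF-ESC, 1.88 ± 0.14 in ESC and 1.83 ± 0.14 in EpiSC, with no overlap between any culture and ICM. Zfp799 rose in all 3 as well, by 1.43 ± 0.20, 1.78 ± 0.20 and 1.84 ± 0.20 in the same order of groups. Zfp931 rose in FGF-ESC (1.61 ± 0.16) and ESC (2.21 ± 0.16), and Zfp992, whose lowest levels were in EpiSC, in FGF-ESC (1.51 ± 0.19) and ESC (1.94 ± 0.19). The rise of Zfp992 was not seen on a probe set listed with Zfp992 and other genes (17421444). That probe set had 8.73 and 9.33 on the FGF-ESC arrays, 8.84 and 8.83 on those of ESC and 8.92 and 8.94 on those of ICM.

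Zfp819, a KRAB zinc finger protein known to bind TRIM28 and repress endogenous retroviruses in mouse pluripotent cells, was at 5.51 and 5.64 on the FGF-ESC arrays, 6.05 and 5.90 on those of ESC, 4.84 and 5.28 on those of EpiSC and 4.64 and 4.99 on those of ICM. It rose in ESC over ICM by 1.16 ± 0.18 (adjusted p = 0.00169), and by 0.99 without ICM replicate 1, under the fold minimum. Zfp608 and Zfp948 rose in EpiSC over ICM by 2.03 ± 0.21 and 1.87 ± 0.30, and Zfp827, a zinc finger protein known from telomere chromatin, by 1.37 ± 0.12. Zfp811 rose in EpiSC over ICM by 1.42 ± 0.13, with ICM near background (3.44 and 3.47), and Zfp760 in ESC over ICM by 1.36 ± 0.18. In FGF-ESC over ICM Zfp948 rose by 1.32 ± 0.30, and by 0.89 without ICM replicate 1, under the fold minimum. Trophectoderm and primitive endoderm markers were also higher in ICM than in any culture, and their part in the ICM levels was not tested.

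**Figure D4:**
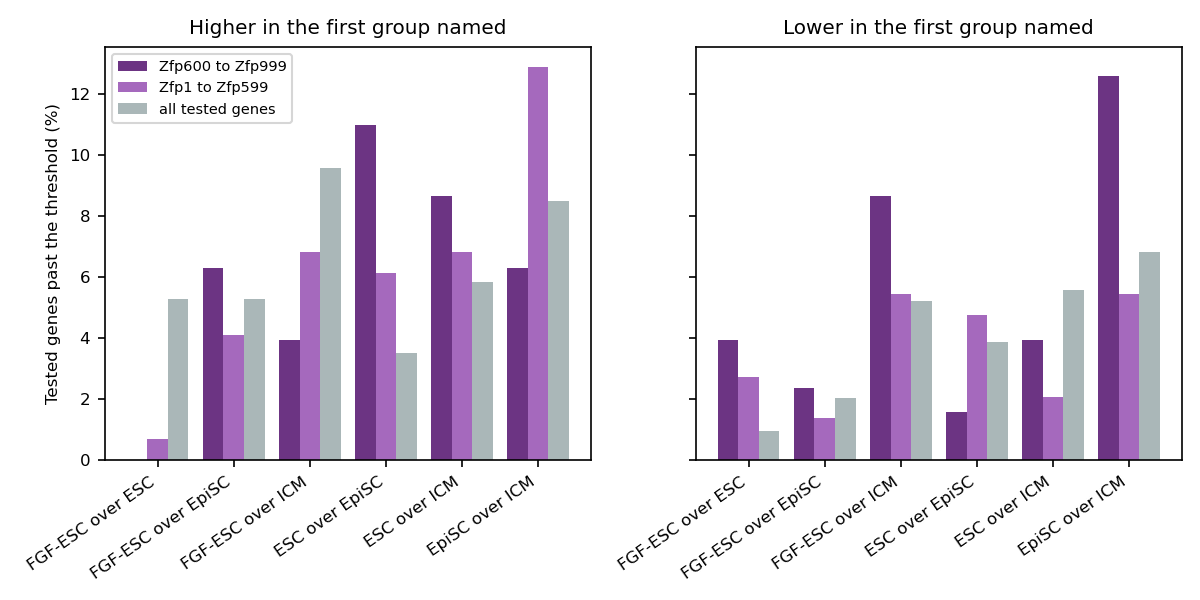
Percentage of tested genes that passed as higher (left) and as lower (right) in the first group named, for the 6 comparisons; dark purple bars are the 127 genes numbered Zfp600 to Zfp999, light purple bars the 147 genes numbered Zfp1 to Zfp599 and grey bars all 13597 tested genes. For ESC over EpiSC the bars of the higher genes stand at 11%, 6.12% and 3.5%.

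Other runs are given for comparison. The run Zfp677 to Zfp945 on chromosome 17 held 14 members, of which 8 were tested and 5 passed somewhere, and between ESC and ICM 3 of its members were higher and 1 lower in ESC. In the run Zfp788 to Zfp715 on chromosome 7, 3 of the 5 members fell in FGF-ESC against ESC, with a median difference of -1.01. In the run Zfp771 to Zfp629, also on chromosome 7, all 7 members were tested and 0 passed in any of the 6 comparisons. Over all tested genes 25.1% passed in any comparison. In ESC over ICM 5.82% of them were higher and 5.57% lower, and in FGF-ESC over ESC 0.934% were lower. The runs were not tested as sets, and the gap that defines them was chosen after seeing the data.

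Other members with known roles did not pass. Zfp703, a transcriptional corepressor, was at 5.66 and 4.47 on the FGF-ESC arrays, 4.23 and 4.01 on those of ESC, 4.70 and 4.94 on those of EpiSC and 4.64 and 4.57 on those of ICM. Its FGF-ESC arrays were more than 1 log2 unit apart, and it passed in none of the comparisons. Zfp746, known as PARIS and as a repressor of the PGC-1alpha gene, stayed between 5.33 and 5.85 on all 8 arrays and passed in none of them either.

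The nearest other group, the genes numbered Zfp1 to Zfp599, had 181 members of which 147 were tested. Between ESC and EpiSC 9 of them (6.12%) were higher and 7 (4.76%) lower, where the genes described here had 14 (11%) and 2 (1.57%). Over all tested genes the shares were 3.5% and 3.86%. Between EpiSC and ICM 19 (12.9%) were higher and 8 (5.44%) lower, where the genes described here had 8 (6.3%) and 16 (12.6%). All tested genes had 8.48% and 6.8% there. The difference between the lists was not tested.

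Of the 155 genes 10 had several probe sets, and these did not always agree. For Zfp640 the brightest (17293854) and the next (17288225) gave nearly the same differences, 3.87 and 3.77 between ESC and EpiSC, and a dimmer one (17293858) gave 1.98. A probe set listed with Zfp640 and Gm10324 had similar levels, 7.01 and 7.23 on the ESC arrays and 3.28 and 3.40 on those of EpiSC. It is thus uncertain which copy the Zfp640 probe sets read, and they are not independent readings. For Zfp979 they were opposed: between EpiSC and ICM probe set 17432749 fell by 2.15, while 17432757, at 6.65 and 6.39 in EpiSC and 5.63 and 5.13 in ICM, rose by 1.14 (adjusted p = 0.00609 in a limma fit with each probe set as its own row). Between ESC and EpiSC the same probe sets of Zfp979 gave 2.12 and 0.74, the second with an adjusted p of 0.0665 from limma. Between FGF-ESC and EpiSC they gave 2.17 and 0.38, and the gene did not pass when they were averaged (0.79). Its values are therefore uncertain. For Zfp799 both probe sets rose in EpiSC over ICM, by 1.84 and 1.23.

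**Figure D5:**
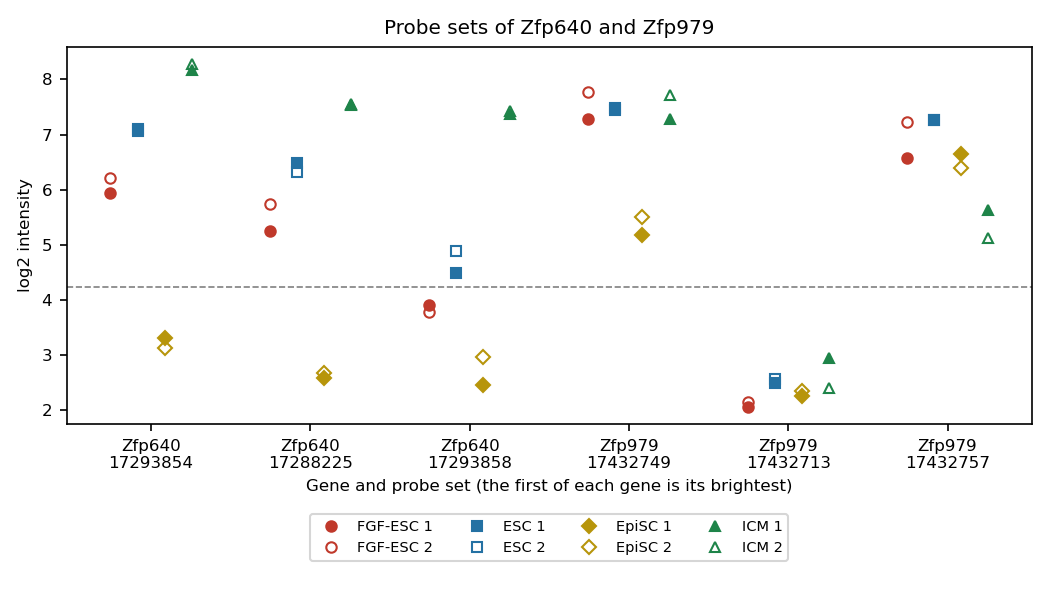
Log2 intensity of the probe sets of Zfp640 and Zfp979 (3 each, the brightest first) on the 8 arrays, with filled symbols for replicate 1 and open ones for replicate 2; the dashed line is the median of all values. All 3 probe sets of Zfp640 have EpiSC lowest and ICM highest, whereas those of Zfp979 order EpiSC and ICM in opposite ways (17432749 against 17432757) and 17432713 lies at background.

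Corepressor, heterochromatin and retroelement silencing genes were described from a list of 34 genes, of which 30 had a probe set of their own and were tested. The list also holds Zfp57, which is itself a KRAB zinc finger gene and belongs to the genes numbered Zfp1 to Zfp599. Trim28, the corepressor itself, was at 9.16 and 9.21 on the FGF-ESC arrays, 9.52 and 9.47 on those of ESC, 9.32 and 9.41 on those of EpiSC and 9.01 and 9.25 on those of ICM and passed in none of the comparisons, and neither did Setdb1, at 7.68 to 8.10 over all arrays. Of the 30 genes 1 was higher and 1 lower in FGF-ESC than in ESC, 3 and 1 in FGF-ESC than in EpiSC, 1 and 0 in FGF-ESC than in ICM, 2 and 4 in ESC than in EpiSC, 3 and 0 in ESC than in ICM and 4 and 1 in EpiSC than in ICM. The shares of all tested genes, higher and lower in the same order, were 5.27% and 0.934%, 5.26% and 2.02%, 9.57% and 5.22%, 3.5% and 3.86%, 5.82% and 5.57%, and 8.48% and 6.8%. The medians were -0.25, -0.14, 0.27, 0.11, 0.36 and 0.33 in that order, against -0.06, -0.04, -0.02, 0.005, 0.02 and 0.01 over all tested genes.

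Dnmt3l, a cofactor of de novo DNA methylation, was at 5.91 and 5.71 on the FGF-ESC arrays, 7.22 and 6.999 on those of ESC, 4.49 and 4.45 on those of EpiSC and 5.80 and 6.02 on those of ICM. It was higher in ESC than in EpiSC by 2.64 ± 0.14 (adjusted p = 1.92e-05), fell in FGF-ESC against ESC (-1.302 ± 0.140) and rose in FGF-ESC against EpiSC by 1.34 ± 0.14. The methyltransferases Dnmt3a and Dnmt3b went the other way and were lower in ESC than in EpiSC, with differences of -1.33 ± 0.11 and -2.00 ± 0.14. Zfp57, a KRAB zinc finger protein that protects methylation at imprinted loci, was at 7.88 and 8.17 on the FGF-ESC arrays, 8.68 and 8.49 on those of ESC, 6.39 and 6.64 on those of EpiSC and 7.06 and 7.33 on those of ICM. It was higher in ESC than in EpiSC by 2.07 ± 0.16 and in FGF-ESC than in EpiSC by 1.51 ± 0.16.

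Tasor and Pphln1, both subunits of the HUSH silencing complex, differed in opposite directions between FGF-ESC and EpiSC. Tasor rose in FGF-ESC against EpiSC by 1.09 ± 0.11, while Pphln1 fell by 1.07 ± 0.11. Pphln1 was also lower in ESC than in EpiSC (-1.36 ± 0.11), where Tasor did not pass (0.44 ± 0.11). Mphosph8, also on the list, had no probe set of its own. Against ICM, the remodelling ATPase Chd3 rose in FGF-ESC (1.29 ± 0.25) and EpiSC (1.57 ± 0.25). In EpiSC Mta1 (1.501 ± 0.149), the heterochromatin protein gene Cbx5 (1.08 ± 0.17) and Dnmt3b (1.77 ± 0.14) were also higher than in ICM. In ESC the maintenance methyltransferase Dnmt1 (1.04 ± 0.13), Dnmt3l (1.20 ± 0.14) and Zfp57 (1.39 ± 0.16) were higher than in ICM. Dnmt3l was lower in EpiSC than in ICM (-1.44 ± 0.14). Chd3 was also higher in FGF-ESC than in ESC (1.07 ± 0.25), with an SD of 0.60 between the FGF-ESC arrays, and that call was lost with the mean of its probe sets, in the fit of only the 2 groups compared and without FGF-ESC replicate 1 (0.65), ESC replicate 1 or ESC replicate 2. Its FGF-ESC over ICM call was lost without FGF-ESC replicate 1 (0.87), and its ESC over EpiSC call (-1.35 ± 0.25) without ESC replicate 1 or EpiSC replicate 1. Pphln1 in FGF-ESC over EpiSC (without FGF-ESC replicate 2), Dnmt1 in ESC over ICM (without ICM replicate 1) and Cbx5 in EpiSC over ICM (without EpiSC replicate 2 or ICM replicate 2) were lost as well.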

How the data were processed

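Total RNA was amplified, labelled and hybridised to 8 arrays, and the deposited series table holds log2 intensities per probe set, for which the submitters' processing notes name the Affymetrix Expression Console, version 1.3.1. How the authors summarised and normalized them is not given in the sources used. The median of the arrays lay between 4.16 and 4.28, and the number of arrays limits the precision. Of 41345 probe sets, 23521 list 1 gene, 1814 several and 16010 none, from the platform annotation, and 0 columns of values were left unused.

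Only probe sets with 1 gene were used, the brightest per gene. Genes that exceeded the overall median of 4.24 on 2 or more arrays were fitted with limma 3.58.1 in R 4.3.3 (lmFit, contrasts.fit, eBayes) over all 4 groups, with Benjamini-Hochberg adjustment over 13597 genes, after a test on simulated data. The labels do not say that replicate numbers pair the arrays, and deviations of same-numbered arrays correlated between -0.086 and 0.042. These correlations cannot show whether same-numbered arrays were handled together.

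The members and lists were chosen with earlier results of these data known. The genes named are, per comparison, the 6 largest rises and 6 largest falls that passed without overlap, the 6 brightest members, a panel of members with known roles or from clusters, members with opposed probe sets, and pathway genes that passed. Of the members of runs that passed, only some are named. RefSeq tables of GRCm38.p6 gave gene order and promoters, and all 155 symbols matched. The gap allowed within a run, the shared stretches and the CpG counts were chosen after seeing the data. Alternatives were the filter, probe set averaging, quantile normalization, array weights, a fit of 2 groups, a replicate block, no fold minimum and leaving out each array.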

Additional observations from a re-analysis of the deposited data

How the results depend on the processing

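Of the 88 calls made over the 6 comparisons, 61 were kept under every alternative that was run, 27 were lost under at least 1 and 0 changed direction. Of the lost calls, 24 were lost when an array was left out, 7 under another setting and 1, Zfp975 in FGF-ESC over ESC, in the fit of only the 2 groups compared. Dropping the fold minimum raised the number of genes passing to 21 in FGF-ESC over ESC, 30 in FGF-ESC over EpiSC, 47 in FGF-ESC over ICM, 29 in ESC over EpiSC, 48 in ESC over ICM and 65 in EpiSC over ICM, by the construction of that rule. With an array left out, the number ranged between 1 and 13 in FGF-ESC over ESC, 11 and 12 in FGF-ESC over EpiSC, 16 and 20 in FGF-ESC over ICM, 13 and 16 in ESC over EpiSC, 13 and 18 in ESC over ICM and 22 and 25 in EpiSC over ICM. The lone array of a group is then assumed to vary like the other groups. In FGF-ESC over ESC, 5 genes passed, 1 without FGF-ESC replicate 1, 13 without FGF-ESC replicate 2 and 2 without ESC replicate 2, and the cause was not tested. With the replicate number as a block, 5 genes passed in that comparison, as without it, and 0 calls were lost in any. Leaving out near-identical copies by protein identity was not run, since no protein table was used here. Genes near the array median of 4.24 have folds that depend on background.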
